A study of Rattus norvegicus with 9 samples.

Results

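The genes described here, 9 in number, had a kidney transcript that was higher in spontaneously hypertensive rats (SHR) and absent or low in Wistar-Kyoto rats (WKY): Setd4, Cbr1, Cbr3, Apoh, Prr35, Capn15, Tnfrsf12a, Snn and Crabp1. They were picked by symbol from 19367 genes for a WKY level near 0 or low beside a higher level in untreated or treated SHR, with no numeric threshold, and all 9 were among the 13127 genes that passed the filter on low values (at least 1 FPKM in at least 3 libraries), although 5 of them passed only through SHR libraries. Genes that passed are called kept genes. Their values against WKY chose them, so those values are given as a description without a test. The choice covered a wide range, since 4 genes lay at 0.05 FPKM or less in every WKY library, Crabp1 lay at 0.23 or less, and the other 4 were plainly expressed in WKY at 7.09 FPKM or more. FPKM is the number of fragments per kilobase of transcript, scaled to a library's mapped reads.

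Kidney RNA was sequenced in 9 libraries. The groups were SHR that received oral dapagliflozin, 10 mg/kg daily over 8 weeks (treated SHR, n = 3), SHR without the drug (untreated SHR, n = 3) and WKY without the drug (n = 3), all 3 months old at the start. SHR is an inbred strain with high blood pressure derived from Wistar-Kyoto stock, WKY is its usual normotensive control, and dapagliflozin inhibits the glucose transporter SGLT2 of the early proximal tubule. The protocol gives distilled water to both groups without the drug, whereas another label reads saline, and the strain label gives Wistar-Kyoto even for the SHR samples. The sample titles therefore define the groups used here. Libraries are not tied to individual animals in the labels, and p-values measure the spread between these libraries.

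Each library summed to between 563643 and 589838 FPKM, and how many reads lay behind it is unknown. The step between the lowest values placed the depth of the libraries at 0.923 to 1.0 times that of WKY library 1, from 15 to 42 genes a library. Kidney identity was plain in all libraries, with the thick limb markers (Umod, Slc12a1, Cldn16, Kcnj1) summing to 1783 to 3251 FPKM in treated SHR, 2540 to 5288 in untreated SHR and 2516 to 3855 in WKY. Treated SHR library 1 stood apart from treated libraries 2 and 3 in some tubule markers only. Its late proximal marker sum was 858.9 FPKM against 118.1 and 205.0, and its distal convoluted tubule sum 481.6 against 842.2 and 850.0. Its early proximal sum of 292.0 FPKM lay between theirs (468.8 and 210.9), and in the thick limb library 2 was lowest, at 1783 against 3251 and 2810. Results between treated and untreated SHR are given with and without treated library 1.

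Setd4 encodes a SET domain lysine methyltransferase. Cbr1 and Cbr3 encode cytosolic carbonyl reductases, short-chain enzymes that use NADPH to reduce ketones, quinones and, in the case of Cbr1, prostaglandin E2. Apoh encodes apolipoprotein H (beta-2-glycoprotein I), a phospholipid-binding plasma protein made mainly in liver. Tnfrsf12a encodes Fn14, the receptor for the cytokine TWEAK, which signals through TRAF adaptors to NF-kB and is known to be induced in injured kidney tubules. Crabp1 encodes a cytosolic protein that binds retinoic acid, and Capn15 an atypical calpain, one of a family of calcium-dependent cysteine proteases. Snn encodes stannin, a small membrane protein known for its part in trimethyltin toxicity, and Prr35 encodes a proline-rich protein without a settled role.

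By gene ID, 5 of the 9 genes lie on chromosome 10 (Apoh, Prr35, Capn15, Tnfrsf12a and Snn), 3 on chromosome 11 (Setd4, Cbr1 and Cbr3) and 1 on chromosome 8 (Crabp1). Chromosome 10 thus held 55.6% of them and 8.78% of the kept genes with a match in the RefSeq table of the GRCr8 assembly. The 9 were picked without a threshold and include a neighbouring pair, so these shares of chromosome 10 are a description without a test. Prr35 and Capn15 are direct neighbours on that chromosome, and the other 3 are apart from them and from each other. The reference order places Setd4, Cbr1 and Cbr3 in one stretch, with Setd4 on the minus strand and Cbr1 and Cbr3 on the plus strand, so Setd4 and Cbr1 are transcribed away from each other.

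The start regions of the 5 genes that were near 0 in WKY are shown because a transcript listed at or near 0 directs a reader to where it would start. All 9 genes matched the RefSeq promoter table of build GRCr8, in which each sequence runs from 250 bases before to 50 bases after the start, 300 bases in all, written 5′ to 3′ on the gene's own strand. The Setd4 region is chr11:46343975-46344274 on the minus strand, and on the plus strand lie those of Cbr1 at chr11:46346155-46346454, Cbr3 at chr11:46478045-46478344, Apoh at chr10:93841742-93842041 and Crabp1 at chr8:64047181-64047480. The letters are those of the reference rat, a Brown Norway animal, and the WKY and SHR genomes were not read here. Capitals mark matches to the motifs named in the next paragraph.
Setd4: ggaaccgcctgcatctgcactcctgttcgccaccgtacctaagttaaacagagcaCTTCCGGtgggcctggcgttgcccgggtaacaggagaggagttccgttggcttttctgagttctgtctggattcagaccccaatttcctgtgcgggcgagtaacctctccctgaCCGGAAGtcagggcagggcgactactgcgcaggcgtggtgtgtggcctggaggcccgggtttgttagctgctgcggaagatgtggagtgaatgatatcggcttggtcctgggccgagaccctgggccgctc
Cbr1: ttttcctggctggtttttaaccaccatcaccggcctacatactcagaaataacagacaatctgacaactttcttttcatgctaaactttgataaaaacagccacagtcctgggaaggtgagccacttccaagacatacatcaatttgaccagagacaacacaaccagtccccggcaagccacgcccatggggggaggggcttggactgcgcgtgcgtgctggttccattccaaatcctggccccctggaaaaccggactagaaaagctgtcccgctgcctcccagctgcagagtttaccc
Cbr3: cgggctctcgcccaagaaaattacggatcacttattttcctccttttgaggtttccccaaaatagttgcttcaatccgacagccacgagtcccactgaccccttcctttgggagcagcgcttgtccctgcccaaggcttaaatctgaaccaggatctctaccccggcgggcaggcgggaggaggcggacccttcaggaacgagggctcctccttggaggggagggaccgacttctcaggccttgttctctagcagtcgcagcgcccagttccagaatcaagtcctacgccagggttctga
Apoh: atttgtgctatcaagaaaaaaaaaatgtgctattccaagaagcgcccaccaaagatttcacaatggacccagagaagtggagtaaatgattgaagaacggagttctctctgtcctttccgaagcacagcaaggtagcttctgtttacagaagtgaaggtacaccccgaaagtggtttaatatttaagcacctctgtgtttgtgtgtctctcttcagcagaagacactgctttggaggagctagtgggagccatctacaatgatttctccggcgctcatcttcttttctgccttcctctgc
Crabp1: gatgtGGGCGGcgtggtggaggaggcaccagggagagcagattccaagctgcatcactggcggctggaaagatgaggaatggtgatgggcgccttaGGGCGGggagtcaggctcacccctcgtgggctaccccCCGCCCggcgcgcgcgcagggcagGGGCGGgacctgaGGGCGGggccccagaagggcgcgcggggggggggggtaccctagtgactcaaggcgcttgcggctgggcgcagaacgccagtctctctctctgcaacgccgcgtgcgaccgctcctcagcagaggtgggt

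The motifs were searched as plain letters on both strands, and were chosen with these sequences in view. The GC box GGGCGG, present in 34.9% of all 27457 promoters of the table, matched 5 times at Crabp1 and not at Setd4, Cbr1, Cbr3 or Apoh. Among the 4 other genes it matched 2 times at Prr35, 4 times at Tnfrsf12a, 6 times at Snn and not at Capn15. The ETS core CCGGAAG (9.22% of promoters) matched 2 times at Setd4, once on each strand, and at Tnfrsf12a at 1 place, where it overlaps a GC box by 1 base. No match was found at any of the 9 for the TATA box TATAAA (14.3% of promoters) or for the core of the antioxidant response element, TGACNNNGC (12.2%). GC content was 60.3% at Setd4, 51.7% at Cbr1, 57.3% at Cbr3, 44.3% at Apoh and 70.7% at Crabp1, where the median promoter had 52.3%. The 5 genes near 0 in WKY therefore had none of the searched motifs in common, and other motifs were not searched. Their base composition differed in these windows, with 18 CpG pairs at Setd4, 8 at Cbr1, 15 at Cbr3, 6 at Apoh and 26 at Crabp1 against a median of 7.

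Setd4, Cbr1 and Cbr3 were expressed in every SHR library and essentially absent from every WKY library. Setd4 (gene ID 245975) measured 6.19, 6.37 and 7.39 FPKM in treated SHR, 6.22, 5.35 and 6.71 in untreated SHR, and 0.05, 0 and 0.01 in WKY. The means were 6.65 ± 0.647 FPKM in treated SHR, 6.09 ± 0.689 in untreated SHR and 0.02 ± 0.0265 in WKY (SD, n = 3 each). The SHR groups overlapped, and both lay far above WKY.

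Cbr1 (gene ID 29224) measured 13.33, 17.83 and 24.14 FPKM in treated SHR and 8.94, 9.84 and 10.75 in untreated SHR, and was listed at 0 in all 3 WKY libraries. Every treated library was above every untreated one. Cbr3 (gene ID 304078) measured 3.54, 4.25 and 5.05 FPKM in treated SHR and 4.01, 3.44 and 4.85 in untreated SHR, and was likewise listed at 0 in WKY. Its SHR groups overlapped. Since the WKY values are exact zeros in a table without counts, no fold is given against them.

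The silence in WKY covered every listed gene of the stretch, and the next listed gene on either side was expressed. RefSeq places 10 entries between Setd4 and Cbr3 inclusive, 6 of them protein-coding, and the expression table holds 5: the 3 named genes and a pair of Cbr1-like genes. The first, Cbr1l2 (gene ID 102556347), measured 5.87, 5.03 and 7.67 FPKM in treated SHR and 4.41, 5.32 and 4.66 in untreated SHR. The second, Cbr1l3 (gene ID 100360601), measured 2.35, 2.91 and 3.26 FPKM in treated SHR and 1.13, 1.2 and 1.69 in untreated SHR. Both were listed at 0 in all 3 WKY libraries.

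Just before the stretch, Runx1, a transcription factor gene, measured 1.05, 2.06 and 2.06 FPKM in treated SHR, 1.09, 0.94 and 1.31 in untreated SHR and 1.24, 1.08 and 1.56 in WKY. Just after it, Dop1b, which acts in endosomal trafficking, measured 2.41, 3.18 and 3.41 FPKM in treated SHR, 2.15, 1.72 and 2.04 in untreated SHR and 1.96, 2.23 and 1.73 in WKY. Both flanking genes were expressed in WKY and overlapped untreated SHR there. Dop1b was higher in treated SHR than in WKY by 0.42 on the log2 scale (SE 0.13, adjusted p = 0.05, limma), a call lost without WKY library 1 or 3, any untreated library or treated library 2 or 3, and under both other scalings (adjusted p = 0.0713 and 0.0693). Cbr1 and its like-named copies may be similar enough to share 50-base reads, so their separate levels are uncertain. All of them were listed at 0 in WKY, but how shared reads were counted is not given, so reads lost there cannot be told from absent transcript.

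**Figure D1:**
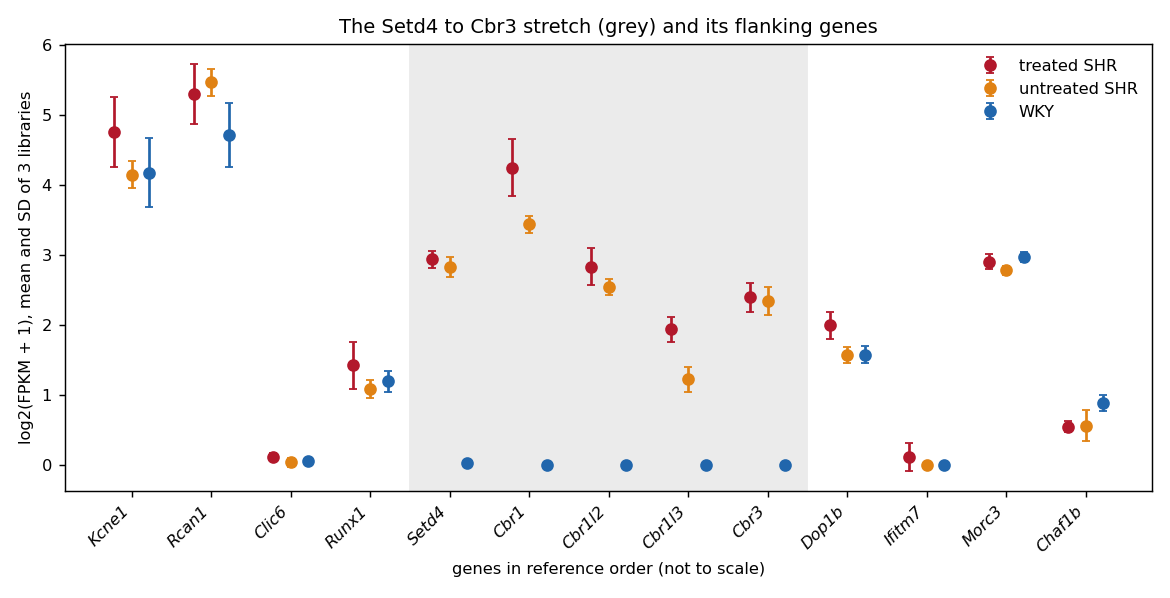
Mean and SD over 3 libraries of log2(FPKM + 1) for the genes of the Setd4 to Cbr3 stretch (grey) and 4 genes of the table on each side, in reference order, for treated SHR (red), untreated SHR (orange) and WKY (blue). All 5 listed genes of the stretch sit at or near 0 in WKY alone, while Runx1 and Dop1b next to it are at similar levels in untreated SHR and WKY.

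Within the stretch, Cbr1 was higher relative to Cbr3 in treated than in untreated SHR. The Cbr1 to Cbr3 ratio of FPKM was 3.77, 4.20 and 4.78 in treated SHR and 2.23, 2.86 and 2.22 in untreated SHR, so the groups did not overlap. The Setd4 to Cbr3 ratio was 1.75, 1.5 and 1.46 in treated SHR and 1.55, 1.56 and 1.38 in untreated SHR, and these overlapped. Setd4 and Cbr3 ranked the 6 SHR libraries in the same order, lowest in untreated library 2 and highest in treated library 3. With 3 libraries against 3, an exact two-sided permutation test cannot go below a p of 0.1, and no test was made of the ratios.

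A pattern this complete was rare in the table. Only 10 genes were at 0.1 FPKM or less in every WKY library and at 1 or more in each of the 6 SHR libraries. They comprise the 5 genes of the Setd4 to Cbr3 stretch, Apoh, the interferon-induced gene Ifit1 and 3 entries with placeholder symbols, and 7 of the 10 were listed at 0 throughout WKY. Ifit1 measured 3.61, 6.10 and 6.88 FPKM in treated SHR, 6.45, 3.22 and 3.55 in untreated SHR, and 0, 0.04 and 0 in WKY. The reverse pattern was seen for 2 genes, Grik2, a kainate receptor subunit, and Topaz1, a germ cell gene. Topaz1 measured 0, 0 and 0.01 FPKM in treated SHR, 0.01, 0.01 and 0.03 in untreated SHR and 5.70, 5.08 and 5.48 in WKY.

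Apoh (gene ID 287774) measured 16.41, 2.86 and 4.36 FPKM in treated SHR and 7.21, 12.17 and 9.50 in untreated SHR, and was listed at 0 in all 3 WKY libraries. Relative to its mean it was the most variable of the 9 genes within treated SHR, at 7.88 ± 7.43 FPKM against 9.63 ± 2.48 in untreated SHR (SD, n = 3 each). Treated library 1 held its highest value and treated library 2 its lowest among SHR.

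Hepatocytes are the main source of Apoh, and their defining markers were at or near 0 in these libraries. Alb lay at no more than 0.09 FPKM in treated SHR, 0.45 in untreated SHR and 0.08 in WKY, and Ahsg at no more than 0.12 in any library. Of 10 hepatocyte markers 7 stayed under 1 FPKM in every library, and Apoa2, Ahsg, Serpina1 and Ttr were listed at 0 in some. All 10 together summed to 13.35 to 21.5 FPKM in treated SHR, 26.42 to 27.6 in untreated SHR and 36.08 to 40.62 in WKY. Most of that sum came from Apoc3 and Fga. The sum was thus lowest in treated SHR and highest in WKY, where Apoh was listed at 0. Coming mostly from Apoc3 and Fga, it says little about the other markers. The source of the Apoh transcript was not tested.

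Among SHR libraries Apoh had nearly the order of late proximal tubule markers. The markers Slc22a7, Slc7a13 and Slc5a1 summed to 858.9, 118.1 and 205.0 FPKM in treated SHR, 564.9, 715.9 and 511.7 in untreated SHR, and 1650, 671.8 and 1539 in WKY. Another marker of that list, Acsm3, was left out of the sum because it differs by strain, at 774.3 ± 256.3 FPKM in treated SHR, 1001 ± 201.3 in untreated SHR and 53.4 ± 17.4 in WKY. Apoh per 1000 FPKM of the 3 markers was 19.1, 24.2 and 21.3 in treated SHR, 12.8, 17.0 and 18.6 in untreated SHR and 0 in WKY. By the sum of these 3 markers WKY libraries 1 and 3 were the highest, with Apoh listed at 0. The left-out Acsm3 went the other way, so this ranking holds for the 3 summed markers only. In whole kidney tissue, fewer cells of a type and less RNA per cell cannot be told apart, and the part of the segment marker levels in the Apoh values was not tested.

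Crabp1 (gene ID 25061) measured 5.27, 8.99 and 12.68 FPKM in treated SHR, 2.33, 3.30 and 4.31 in untreated SHR, and 0.22, 0.12 and 0.23 in WKY. The means were 8.98 ± 3.71 FPKM in treated SHR, 3.31 ± 0.990 in untreated SHR and 0.19 ± 0.0608 in WKY (SD, n = 3 each), and the 3 groups did not overlap. Its relative Crabp2, which also binds retinoic acid, was at 0.587 ± 0.220 FPKM in treated SHR, 0.617 ± 0.241 in untreated SHR and 0.497 ± 0.350 in WKY, below the filter on low values.

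Cbr1 and Crabp1 ranked the SHR libraries identically, and in the same order as the principal cell markers of the collecting duct. Those markers (Aqp2, Aqp3, Fxyd4 and Scnn1g) summed to 919.7, 1238 and 1652 FPKM in treated SHR, 670.2, 725.5 and 779.9 in untreated SHR, and 270.2, 507.0 and 369.8 in WKY. Cbr1 per 1000 FPKM of principal cell markers was 14.5, 14.4 and 14.6 in treated SHR and 13.3, 13.6 and 13.8 in untreated SHR, so its level per marker hardly varied over the 6 libraries. Crabp1 per 1000 FPKM of the same markers was 5.73, 7.26 and 7.68 in treated SHR, 3.48, 4.55 and 5.53 in untreated SHR, and 0.814, 0.237 and 0.622 in WKY. These pairings of genes with marker lists were chosen after their values were seen, and the part of the marker levels in the gene values was not tested.

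**Figure D2:**
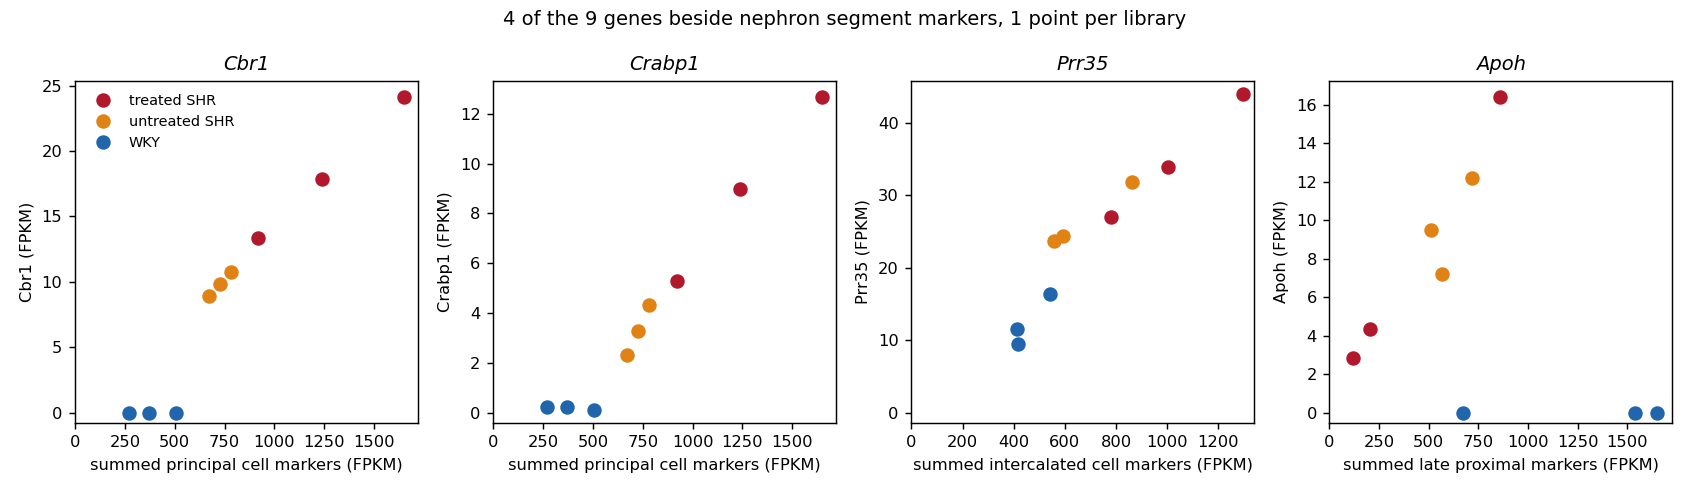
FPKM of Cbr1, Crabp1, Prr35 and Apoh (vertical axes) against summed marker FPKM (horizontal axes; principal cell for Cbr1 and Crabp1, intercalated cell for Prr35, late proximal tubule for Apoh), 1 point per library, for treated SHR (red), untreated SHR (orange) and WKY (blue). Cbr1 and Crabp1 climb with the principal cell markers in the 6 SHR libraries and stay at or near 0 in WKY, and Apoh climbs with the late proximal markers in SHR and is listed at 0 in WKY.

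Prr35 and Capn15 lie side by side, and both were lower in WKY without being silent. Prr35 (gene ID 302999) measured 26.96, 33.95 and 44.01 FPKM in treated SHR, 24.42, 23.75 and 31.81 in untreated SHR, and 11.53, 16.38 and 9.53 in WKY. Its mean was 2.80-fold higher in treated SHR and 2.14-fold higher in untreated SHR than in WKY. Over the SHR libraries Prr35 had the same order as the summed intercalated cell markers of the collecting duct (778.8, 1001 and 1296 FPKM in treated SHR, 592.5, 556.1 and 860.9 in untreated SHR, and 413.0, 540.8 and 418.6 in WKY). Per 1000 FPKM of those markers Prr35 was at 34.6, 33.9 and 34.0 FPKM in treated SHR, 41.2, 42.7 and 37.0 in untreated SHR, and 27.9, 30.3 and 22.8 in WKY, so both SHR groups lay above every WKY library. Per 1000 FPKM of the principal cell markers, whose order over the SHR libraries was not the same, Prr35 was at 29.3, 27.4 and 26.6 FPKM in treated SHR, 36.4, 32.7 and 40.8 in untreated SHR, and 42.7, 32.3 and 25.8 in WKY. On that scale both SHR groups lay within the WKY range, so the reading against WKY turned on the marker list. The part of the marker levels in the Prr35 values was not tested.

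Capn15 (gene ID 303000) measured 9.69, 10.34 and 11.87 FPKM in treated SHR, 10.43, 10.08 and 11.27 in untreated SHR, and 7.09, 7.76 and 7.41 in WKY. The difference was the smallest of the 9, with means 1.43-fold higher than WKY in both SHR groups (10.6 ± 1.12 FPKM in treated SHR, 10.6 ± 0.612 in untreated SHR and 7.42 ± 0.335 in WKY, SD, n = 3 each). The groups of SHR overlapped and neither overlapped WKY.

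Tnfrsf12a and Snn had nearly the same level in WKY and nearly the same pattern. Tnfrsf12a (gene ID 302965) measured 37.28, 30.75 and 35.45 FPKM in treated SHR, 43.03, 44.48 and 36.59 in untreated SHR, and 19.02, 21.61 and 21.95 in WKY. Its mean was 1.65-fold higher in treated SHR and 1.98-fold higher in untreated SHR than in WKY. Snn (gene ID 29140) measured 34.05, 29.49 and 37.82 FPKM in treated SHR, 37.19, 39.13 and 34.34 in untreated SHR, and 18.84, 21.79 and 21.94 in WKY. Its mean was 1.62-fold higher in treated SHR and 1.77-fold higher in untreated SHR. For both genes the SHR groups overlapped, and their order over the libraries did not follow the principal cell markers. Per 1000 FPKM of those markers Tnfrsf12a was at 40.5, 24.8 and 21.5 FPKM in treated SHR, 64.2, 61.3 and 46.9 in untreated SHR, and 70.4, 42.6 and 59.4 in WKY. On that scale treated SHR lay below every WKY library for both genes, and untreated SHR within the WKY range. Over the SHR libraries Tnfrsf12a had nearly the order of the thick limb marker sum. The part of the marker levels in both genes was not tested.

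**Figure D3:**
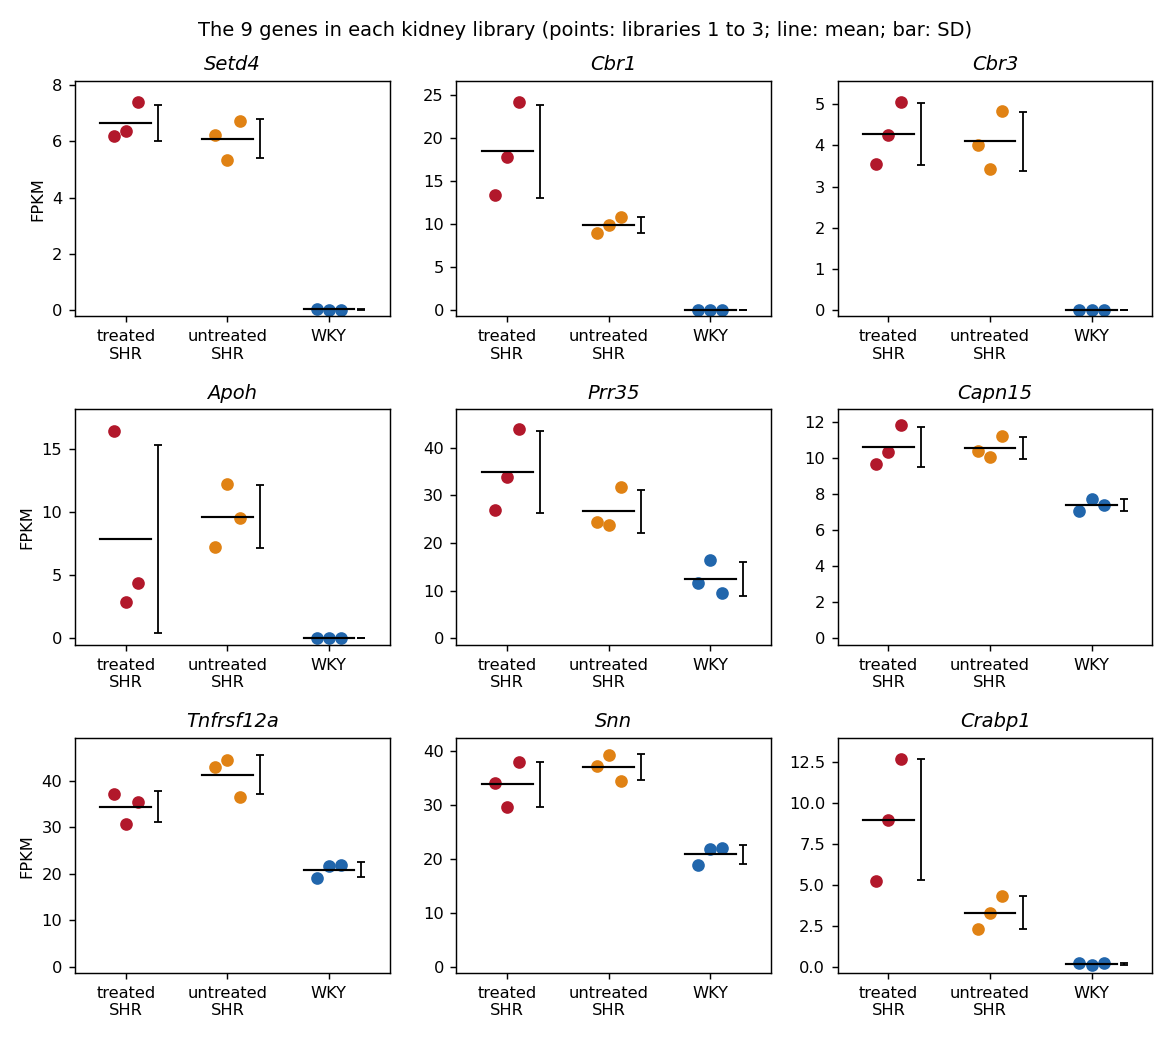
FPKM of each of the 9 genes in treated SHR (red), untreated SHR (orange) and WKY (blue). Points are the 3 libraries of a group, the line is their mean and the bar to the right their SD. No SHR library reaches down to the WKY libraries for any of the 9 genes, and only Cbr1 and Crabp1 separate treated from untreated SHR.

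All 9 genes were higher than WKY without overlap in treated SHR, where 28.2% of the 13127 genes were higher and 10.4% lower without overlap. All 9 were so in untreated SHR too, where 20.3% of genes were higher and 8.11% lower. This follows from the choice of genes and is not a result. On the log2(FPKM + 1) scale, the difference from WKY ran from 0.46 at Capn15 to 2.90 at Setd4 and 3.00 at Crabp1 in treated SHR, leaving out the 3 genes listed at 0. In untreated SHR it was 0.46 at Capn15, 2.79 at Setd4 and 1.83 at Crabp1. Which of Setd4 and Crabp1 differed more in treated SHR turned on the pseudocount, with 3.78 for Setd4 and 3.70 for Crabp1 at a pseudocount of 0.5, and 5.83 and 4.90 at 0.1. In untreated SHR Setd4 had the larger difference at all 3 pseudocounts. The comparisons with WKY share the WKY libraries.

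The comparison of treated with untreated SHR asks whether dapagliflozin was followed by a further change. The difference between these groups was not itself a criterion of the choice. The levels in both took part in it, however, so a gene high mainly in treated SHR could enter. Earlier results of these data were also known, so the p-values of the 9 are not independent of the choice. In limma with Benjamini-Hochberg adjustment over all genes, none of the 9 passed at an adjusted p of 0.05, and 0 of 13127 genes did (0.0%). At an unadjusted p of 0.05, 1997 genes (15.2%) passed. Crabp1 had the largest difference of the 9, a log2 change of 1.16 (SE 0.27, adjusted p = 0.281), and was higher in 3 of 3 treated libraries than in any untreated one. Cbr1 had a log2 change of 0.81 (SE 0.18, adjusted p = 0.281), also without overlap. These 2 of 9 genes compare with 12.6% of all genes that were higher in treated SHR without overlap, and none of the 9 was lower without overlap, as 6.44% of all genes were. Apoh had a log2 change of -0.55 with the widest error (SE 0.47, adjusted p = 0.585).

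The other 6 genes overlapped between the SHR groups. Prr35 had a log2 change of 0.36 (SE 0.22), Tnfrsf12a one of -0.25 (SE 0.11) and Snn one of -0.13 (SE 0.11), with adjusted p-values of 0.437, 0.314 and 0.568 in the same limma fit. Setd4 at 0.11 (SE 0.11), Cbr3 at 0.05 (SE 0.14) and Capn15 at 0.00 (SE 0.09) differed least, and their adjusted p-values in limma were 0.647, 0.888 and 0.995. Of the stretch silent in WKY, Cbr1l3 also had treated libraries above all untreated ones, with a log2 change of 0.72 (SE 0.14, adjusted p = 0.281, limma).

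Treated SHR library 1 decided these calls. Without it 830 genes passed in limma, 407 higher and 423 lower, and 3 of the 9 genes were among them. Cbr1 then had a log2 change of 1.01 (SE 0.14, adjusted p = 0.0232), Crabp1 one of 1.46 (SE 0.21, adjusted p = 0.024) and Apoh one of -1.2 (SE 0.21, adjusted p = 0.0311). These calls rest on 2 treated libraries. The fit pools the spread over the 3 groups, and Cbr1 and Apoh have none in WKY, which narrows their errors. In a limma fit on treated and untreated SHR alone, with all 6 libraries, the SE was 0.20 for Cbr1, 0.30 for Crabp1 and 0.54 for Apoh (adjusted p = 0.37, 0.37 and 0.64). That fit was not run without treated library 1. Leaving out any other single library gave no call for any of the 9. The principal and late proximal marker sums given above moved in the same libraries, with treated libraries 2 and 3 highest in the first and lowest in the second, and their part in these changes was not tested.

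**Figure D4:**
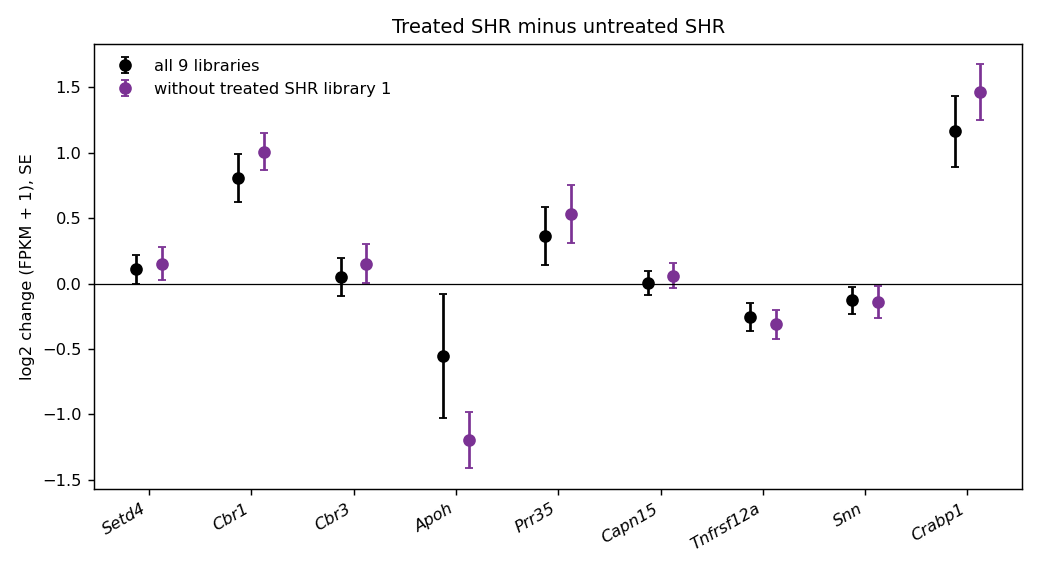
Log2 change of FPKM + 1 in treated minus untreated SHR for the 9 genes, with the standard error of the limma fit, using all 9 libraries (black) and without treated SHR library 1 (purple). Without that library Cbr1 and Crabp1 lie at 1.01 and 1.46 and Apoh at -1.2, and the other 6 genes stay within 0.6 of 0.

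The genes around the 9 were read from the same fit, since the choice did not rest on them. The 5 nearest kept genes on each side gave 62 neighbours at 6 places. Between untreated SHR and WKY, 7 of them (11.3%) passed, 6 higher and 1 lower, where 2.96% of all genes did (1.84% higher and 1.12% lower). Between treated SHR and WKY 18 (29.0%) passed, 15 higher and 3 lower, where 22.9% of all genes did (16.8% higher and 6.09% lower). Scaling by the median of ratios left 8 higher and 5 lower, and quantile normalization 11 higher and 3 lower. This count moved with single libraries, to 7 without WKY library 1, 6 without WKY library 3, 30, 10 and 7 without treated libraries 1, 2 and 3, and 8 in a fit on those 2 groups. None passed between treated and untreated SHR, and without treated library 1 there were 3, of which 2 were higher and 1 lower. The Cbr1-like pair make up 2 of the 6 higher in untreated SHR and 2 of the 15 higher in treated SHR. They passed the filter only through their SHR libraries, so they had to differ. Fam243a, among both the 6 and the 15, and Zfp13, among the 15 only, were below 1 FPKM in every WKY library. They too passed only through SHR libraries, so the filter favoured a difference. The shares of 11.3% and 29.0% include such genes and are raised by them.

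The nearest neighbours of Tnfrsf12a on one side were a pair of claudin genes with a wider gap between the strains than Tnfrsf12a itself. Cldn6, a tight junction protein gene best known from embryonic epithelia, measured 23.59, 24.76 and 24.74 FPKM in treated SHR, 24.67, 23.59 and 29.57 in untreated SHR, and 5.56, 8.53 and 6.91 in WKY. The log2 change was 1.68 in treated SHR (SE 0.14, adjusted p = 0.000311, limma) and 1.76 in untreated SHR (SE 0.14, adjusted p = 0.000226). Cldn9 beside it measured 12.85, 14.98 and 18.06 FPKM in treated SHR, 11.79, 8.55 and 13.54 in untreated SHR, and 3.29, 4.36 and 1.99 in WKY. Its log2 change was 1.98 in treated SHR (SE 0.23, adjusted p = 0.00199, limma) and 1.56 in untreated SHR (SE 0.23, adjusted p = 0.00888). Both calls held without each library in turn.

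On the other side of Tnfrsf12a, Hcfc1r1 and Thoc6 did not pass in either comparison with WKY. Farther out on that side, Zfp13 at 0.75 (SE 0.14, adjusted p = 0.0125, limma) and Bicdl2 at 0.74 (SE 0.22, adjusted p = 0.0394) were higher in treated SHR than in WKY. The first call was lost without WKY library 3 (adjusted p = 0.0555), and the second in 6 of 9 such fits, namely without WKY library 1 or 3, untreated library 2 or 3, or treated library 2 or 3, and also under both other scalings (adjusted p = 0.0526 and 0.0625). Zfp13 passed the filter only through its SHR libraries, so its call is not independent of the filter.

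Near Snn the neighbours split. Txndc11, a thioredoxin domain gene next to it, measured 22.88, 20.43 and 21.81 FPKM in treated SHR, 22.22, 22.63 and 23.40 in untreated SHR, and 18.05, 17.97 and 17.18 in WKY. The log2 change was 0.28 in treated SHR (SE 0.07, adjusted p = 0.0242, limma) and 0.34 in untreated SHR (SE 0.07, adjusted p = 0.0318). The call in untreated SHR was lost without any one of the WKY or untreated SHR libraries, and that in treated SHR without WKY library 1 or 3 or treated library 3. Both were lost under the 2 other scalings, with adjusted p-values of 0.0848 to 0.213. Litaf, next to Snn on the other side, a regulator of endosomal sorting, was lower in treated SHR than in WKY, at 89.41, 73.05 and 69.49 FPKM in treated SHR against 109.36, 91.62 and 108.12 in WKY (log2 change -0.41, SE 0.11, adjusted p = 0.0316, limma). This call was lost without WKY library 1 or 3, untreated library 1, or treated library 2 or 3. Clec16a, an autophagy gene, was higher in treated SHR than in WKY by 0.43 (SE 0.10, adjusted p = 0.021, limma), and lost that call without WKY library 1 or 3 or treated library 2 or 3.

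At Prr35 and Capn15 none of the 10 neighbours passed between untreated SHR and WKY. Pigq, which acts in the synthesis of GPI anchors, was next to Prr35 and higher in treated SHR than in WKY by 0.54 (SE 0.14, adjusted p = 0.0271, limma), and Mcrip2 by 0.43 (SE 0.12, adjusted p = 0.0391). Pigq lost its call without WKY library 1 or 3 or treated library 3, and under median-of-ratios scaling (adjusted p = 0.0547). Mcrip2 lost its call without WKY library 1 or 3, untreated library 1 or treated library 2 or 3, and under the same scaling (adjusted p = 0.118).

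**Figure D5:**
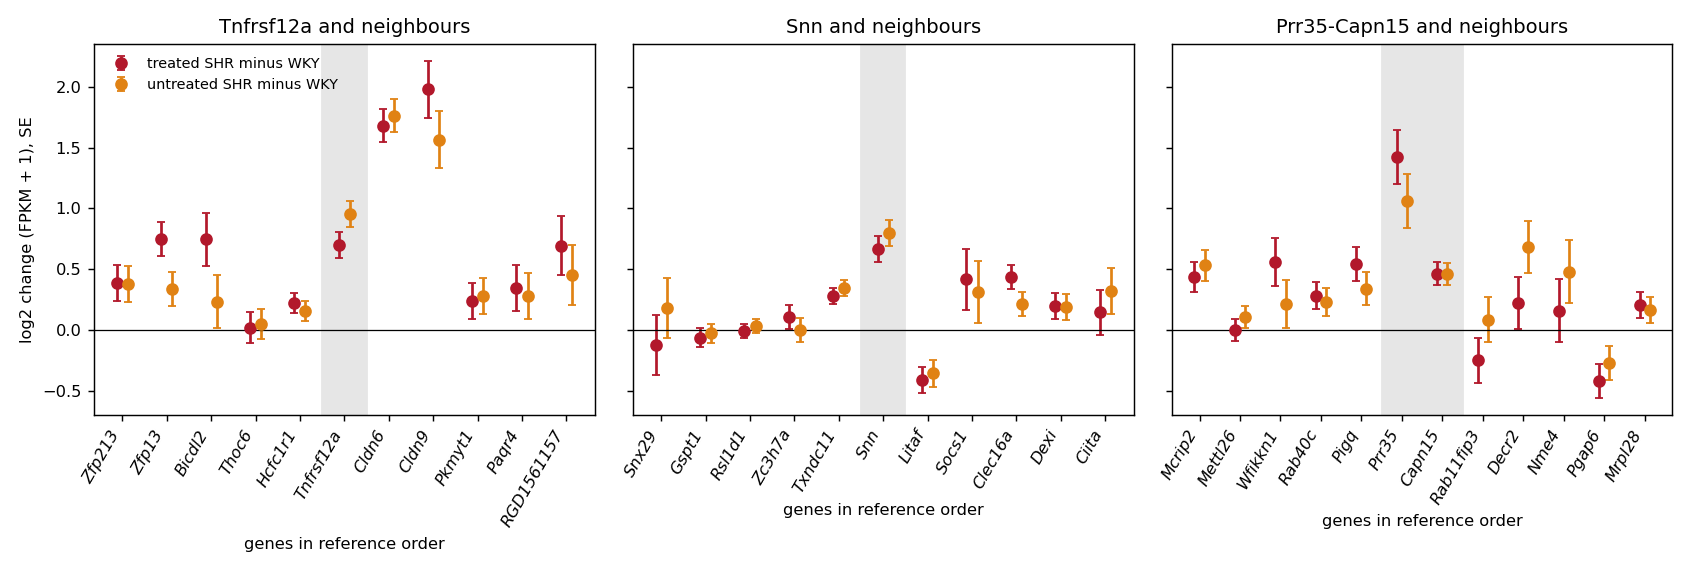
Log2 change of FPKM + 1 from WKY, with the standard error of the limma fit, for Tnfrsf12a, Snn and the Prr35 and Capn15 pair (grey) and 5 kept genes on each side in reference order, for treated SHR (red) and untreated SHR (orange). Cldn6 and Cldn9 beside Tnfrsf12a lie between 1.56 and 1.98 and Litaf beside Snn lies below 0 at -0.41 in treated SHR.

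Apoh had 10 neighbours, of which 0 passed between untreated SHR and WKY and 1, Gna13, was higher in treated SHR than in WKY (log2 change 0.45, SE 0.13, adjusted p = 0.0446, limma). That call was lost in 8 of 9 leave-one-out fits, all but the one without treated library 1, and under both other scalings (adjusted p = 0.0779 and 0.089). Cacng5, 2 kept genes from Apoh, measured 105.28, 11.32 and 21.59 FPKM in treated SHR, 30.65, 58.82 and 41.38 in untreated SHR, and 108.22, 47.40 and 94.37 in WKY. It was named after its values were seen, for its spread over SHR libraries in the same order as Apoh, and unlike Apoh it was abundant in WKY.

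Near Crabp1 the direction turned. Fbxo22, an F-box gene of the ubiquitin system 5 kept genes away, measured 52.56, 53.74 and 45.60 FPKM in treated SHR, 54.78, 54.64 and 56.22 in untreated SHR, and 122.48, 104.81 and 117.55 in WKY. It fell by 1.17 on the log2 scale in treated SHR (SE 0.09, adjusted p = 0.000163, limma) and by 1.04 in untreated SHR (SE 0.09, adjusted p = 0.000337), and kept both calls without each library in turn. The direct neighbours Wdr61 and Ireb2 did not pass in either comparison. Idh3a of the tricarboxylic acid cycle was higher in treated SHR than in WKY by 0.38 (SE 0.10, adjusted p = 0.0312, limma) and Sh2d7 lower by 0.68 (log2 change -0.68, SE 0.17, adjusted p = 0.0282). Both lost the call without WKY library 1 or 3 or treated library 2 or 3, and Idh3a also without untreated library 1 and under median-of-ratios scaling (adjusted p = 0.0582).

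Around the Setd4 to Cbr3 stretch, Fam243a, 4 kept genes before Setd4, was higher in treated SHR at 2.23, 2.22 and 3.65 FPKM, and in untreated SHR at 1.93, 2.10 and 2.90, against 0.93, 0.84 and 0.73 in WKY. Fam243a passed the filter only through its SHR libraries, so its calls against WKY are not independent of the filter. Its log2 change was 0.99 in treated SHR (SE 0.18, adjusted p = 0.0102, limma) and 0.84 in untreated SHR (SE 0.18, adjusted p = 0.0411). The second was lost in 7 of 9 leave-one-out fits, those without any WKY or untreated SHR library or treated library 2, and under quantile normalization (adjusted p = 0.0526). Hlcs, the ligase that attaches biotin to carboxylases, was higher in treated SHR than in WKY by 0.55 (SE 0.12, adjusted p = 0.0169, limma), a call lost without WKY library 1 or 3 or treated library 3.

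Genes with roles like those of the 9 were read from 8 lists, without the 9 themselves. Each list's calls stand beside those over all genes, of which 16.8% were higher and 6.09% lower in treated SHR than in WKY, and 1.84% higher and 1.12% lower in untreated SHR. In treated SHR against WKY the list counts depended on single libraries, and without WKY library 1 or 3 or treated library 2 or 3 no list had more than 3 higher or 3 lower calls. No listed gene passed between treated and untreated SHR. Without treated library 1, with 830 calls over all genes, there were 2 higher and 7 lower calls on the NRF2 list and 1 higher and 2 lower among the reductases. The SET domain, TWEAK and retinoid lists then had 1 lower call each, the receptor and apolipoprotein lists 2 lower calls each, and the calpains 0.

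Between untreated SHR and WKY, 0 of the 20 kept carbonyl and aldo-keto reductases passed, and their median log2 change was 0.08 against 0.07 over all genes. Between treated SHR and WKY 4 were higher and 1 lower (median -0.06 against 0.11). Without treated library 1 this was 5 higher and 6 lower, so the balance turned, and it was 2 and 1 by the median of ratios. The median between treated and untreated SHR was -0.22 against 0.04 over all genes. Cbr4, the mitochondrial relative of Cbr1 and Cbr3, stood at 20.8 ± 1.25 FPKM in treated SHR, 21.1 ± 0.890 in untreated SHR and 21.1 ± 3.01 in WKY. Dcxr, which reduces xylulose, stood at 286.5 ± 65.05 FPKM in treated SHR, 380.3 ± 33.2 in untreated SHR and 309.2 ± 64.94 in WKY. Akr1a1, an aldehyde reductase, stood at 897.5 ± 214.2 FPKM in treated SHR, 1080 ± 76.7 in untreated SHR and 1086 ± 170 in WKY. None of these 3 passed in any comparison.

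Hsd11b2, which inactivates glucocorticoid in the collecting duct, measured 886.52, 1244.5 and 1707.05 FPKM in treated SHR, 569.38, 495.04 and 709.0 in untreated SHR, and 314.23, 615.66 and 341.8 in WKY. Its log2 change from WKY in treated SHR was 1.61 (SE 0.30, adjusted p = 0.0121, limma), lost without WKY library 3. Hsd17b4, a peroxisomal enzyme, was lower by 0.80 (log2 change -0.80, SE 0.15, adjusted p = 0.0108), and kept its call without each library in turn. Dhrs7 was higher by 0.49 (SE 0.13, adjusted p = 0.0316), a call lost without WKY library 1 or 3, untreated library 1 or treated library 2 or 3, and under quantile normalization.

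NRF2 is a stress-responsive transcription factor, and Cbr1 and Cbr3 are counted among its targets. Of 28 other kept genes on the NRF2 list, 1 was higher and 1 lower in untreated SHR than in WKY (median log2 change -0.04), and 4 were higher and 3 lower in treated SHR (median -0.26). Other scalings turned that balance, to 3 higher and 6 lower by the median of ratios and 4 higher and 5 lower by quantiles. It was 4 higher and 12 lower without treated library 1. Srxn1, sulfiredoxin, measured 19.25, 22.79 and 26.77 FPKM in treated SHR, 14.82, 12.74 and 16.34 in untreated SHR, and 6.98, 8.87 and 7.68 in WKY. The log2 change was 1.43 in treated SHR (SE 0.14, adjusted p = 0.000813, limma) and 0.82 in untreated SHR (SE 0.14, adjusted p = 0.017), the second lost without WKY library 1 or 3 or untreated library 1 or 3. Gstm1, a glutathione transferase with near-identical relatives that can exchange reads, went the other way, at 39.0 ± 8.87 FPKM in treated SHR, 34.8 ± 4.21 in untreated SHR and 246.8 ± 78.5 in WKY (log2 change -2.61 in treated and -2.75 in untreated SHR, adjusted p = 0.000502 and 0.000337, limma). Nfe2l2, which encodes NRF2, was higher in treated SHR than in WKY by 0.68 (SE 0.13, adjusted p = 0.0136), lost without WKY library 1 or 3.

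Nqo1, a quinone reductase and classical target, stood at 6.85 ± 1.05 FPKM in treated SHR, 5.50 ± 0.728 in untreated SHR and 5.80 ± 0.946 in WKY, and did not pass. Hmox1, heme oxygenase, stood at 8.32 ± 2.40 FPKM in treated SHR, 8.88 ± 2.13 in untreated SHR and 3.36 ± 1.29 in WKY. Its log2 change was 1.11 in treated SHR (adjusted p = 0.0238, limma; lost without WKY library 1 or treated library 3) and 1.2 in untreated SHR (adjusted p = 0.054). Ephx2, soluble epoxide hydrolase, is a strain-dependent enzyme outside these lists, at 55.5 ± 13.9 FPKM in treated SHR, 56.6 ± 6.13 in untreated SHR and 4.84 ± 1.10 in WKY (log2 change 3.26 in treated and 3.31 in untreated SHR, adjusted p = 4.1e-05 and 3.3e-05, limma).

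Of 25 other kept SET domain genes, 0 passed between untreated SHR and WKY (median log2 change 0.15). In treated SHR against WKY 4 were higher and 1 lower (median 0.20), but this balance turned with the scaling, to 1 higher and 5 lower by the median of ratios and to 0 higher and 4 lower by quantiles. Without treated library 1 it was 7 higher and 1 lower. Kmt5a, the histone H4 lysine 20 monomethyltransferase, fell to 32.1, 34.27 and 31.42 FPKM in treated SHR, against 42.38, 43.03 and 45.68 in WKY (log2 change -0.41, SE 0.06, adjusted p = 0.00669, limma), and kept its call without each library in turn. Smyd5 was higher by 0.44 (SE 0.10, adjusted p = 0.019), a call lost without WKY library 1 or 3 or treated library 2 or 3 and under quantile normalization.

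For the receptor Fn14, encoded by Tnfrsf12a, the ligand gene Tnfsf12 (TWEAK) stood at 12.8 ± 2.22 FPKM in treated SHR, 13.2 ± 0.220 in untreated SHR and 11.1 ± 1.99 in WKY and did not pass in any comparison. Of 19 kept genes of the TWEAK pathway other than Tnfrsf12a, 0 passed between untreated SHR and WKY (median log2 change 0.10). In treated SHR against WKY 3 were higher and 2 lower (median 0.18), and 1 higher and 2 lower under both other scalings. There were 6 higher and 0 lower without treated library 1. The adaptor Traf5 was higher by 0.57 (SE 0.14, adjusted p = 0.026, limma) and Traf2 by 0.44 (SE 0.13, adjusted p = 0.0407). Traf5 lost its call without any WKY library or treated library 2 or 3, and Traf2 without WKY library 1 or 3, any untreated library or treated library 2 or 3 and under both other scalings. The chemokine gene Ccl2, an output of the pathway, was lower at 0.52, 0.56 and 1.05 FPKM in treated SHR against 1.81, 1.90 and 1.65 in WKY (log2 change -0.72, SE 0.20, adjusted p = 0.037, limma), and lost its call in 7 of 9 leave-one-out fits, all but those without untreated library 1 or 3.

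The kinase gene Map3k14 (NIK) stood at 3.23 ± 0.501 FPKM in treated SHR, 4.28 ± 0.304 in untreated SHR and 4.15 ± 1.23 in WKY, and the transcription factor gene Relb at 5.73 ± 1.30 FPKM in treated SHR, 4.74 ± 0.690 in untreated SHR and 4.11 ± 0.876 in WKY. The apoptosis inhibitor gene Birc3 stood at 1.55 ± 0.131 FPKM in treated SHR, 1.48 ± 0.279 in untreated SHR and 1.74 ± 0.284 in WKY. None of these 3 passed in any comparison. Among 8 kept relatives of the receptor, 0 passed in untreated SHR and 1, Tnfrsf14, was lower in treated SHR than in WKY (log2 change -0.95, SE 0.26, adjusted p = 0.0347, limma), lost without WKY library 1 or 3, untreated library 2 or treated library 3. Without treated library 1, 1 relative was higher and 4 were lower.

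Calpains other than Capn15 gave 0 of 8 calls between untreated SHR and WKY (median log2 change 0.14) and 3 higher in treated SHR than in WKY (median 0.35). The 3 became 2 under both other scalings, 5 without treated library 1, and 0 without WKY library 1 or 3 or treated library 2 or 3. Capn1 was higher by 0.87 (SE 0.19, adjusted p = 0.0184, limma), Capn5 by 0.59 (SE 0.14, adjusted p = 0.0211) and Capn2 by 0.43 (SE 0.13, adjusted p = 0.0462). Capn1 and Capn5 lost their calls without WKY library 1 or 3 or treated library 2 or 3, and Capn2 without these or any untreated library and under both other scalings. Capn1 stood at 108.9 ± 25.82 FPKM in treated SHR, 78.02 ± 7.42 in untreated SHR and 58.84 ± 12.9 in WKY.

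In the retinoid list, 19 genes other than Crabp1 were kept, of which 1 was higher in untreated SHR than in WKY (median log2 change 0.10), and 5 were higher and 2 lower in treated SHR (median 0.36). Median-of-ratios scaling turned that balance to 2 higher and 3 lower, and quantile normalization to 3 and 3. Without treated library 1 there were 9 higher and 3 lower. Rarres2, the retinoid-responsive gene of the chemoattractant chemerin, measured 29.70, 43.44 and 34.08 FPKM in treated SHR, 37.61, 32.37 and 47.59 in untreated SHR, and 15.21, 16.93 and 11.16 in WKY. Its log2 change was 1.25 in treated SHR (SE 0.20, adjusted p = 0.00679, limma) and 1.38 in untreated SHR (SE 0.20, adjusted p = 0.00702), and both calls held without each library in turn. Aldh1a1, which makes retinoic acid, stood at 412.6 ± 125 FPKM in treated SHR, 350.5 ± 49.1 in untreated SHR and 214.2 ± 44.6 in WKY. Its log2 change was 0.92 in treated SHR (adjusted p = 0.0282, limma; lost without WKY library 1 or 3 or treated library 2 or 3) and 0.72 in untreated SHR (adjusted p = 0.157). Rdh10, which makes its precursor, was lower in treated SHR than in WKY by 0.51 (log2 change -0.51, SE 0.13, adjusted p = 0.028), with the same libraries deciding the call. The receptor gene Rara stood at 27.0 ± 5.72 FPKM in treated SHR, 24.9 ± 1.87 in untreated SHR and 28.1 ± 2.34 in WKY, and did not pass in any comparison.

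Among 11 kept plasma apolipoproteins and coagulation inhibitors other than Apoh, 1 was higher and 1 lower in untreated SHR than in WKY (median log2 change 0.09), and 2 were higher and 3 lower in treated SHR (median -0.46), or 2 and 5 without treated library 1. Lcat, which esterifies cholesterol on lipoproteins, measured 4.42, 4.56 and 6.62 FPKM in treated SHR, 4.24, 4.30 and 5.70 in untreated SHR, and 1.57, 2.45 and 1.74 in WKY. Its log2 change was 1.08 in treated SHR (SE 0.18, adjusted p = 0.00783, limma) and 0.98 in untreated SHR (SE 0.18, adjusted p = 0.0219), the second lost without WKY library 1 or 3 or any untreated library. Clu, clusterin, fell by 1.06 in treated SHR (adjusted p = 0.00613, limma) and by 1.23 in untreated SHR (adjusted p = 0.00475) on the log2 scale, and kept both calls without each library in turn. It stood at 50.5 ± 11.2 FPKM in treated SHR, 44.2 ± 3.15 in untreated SHR and 105.4 ± 13.03 in WKY. Apoc3 was lower in treated SHR than in WKY by 1.23 (log2 change -1.23, adjusted p = 0.00715).

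Other genes with the most similar pattern over the 9 libraries were ranked by the root mean square difference of values taken as a share of each gene's highest library, which is a description. For Setd4 the nearest of the 9 was Cbr3, at 0.0537, and the nearest other genes were RT1-CE2 (0.0779), Ndufa10l1 (0.0944) and RT1-CE4 (0.112). The RT1 genes encode class I histocompatibility molecules, whose near-identical copies differ between strains and can exchange reads. RT1-CE2 measured 41.63, 40.15 and 52.66 FPKM in treated SHR, 44.35, 37.61 and 38.73 in untreated SHR, and 2.72, 3.94 and 3.79 in WKY. For Cbr3 they were RT1-CE2 (0.0953), RT1-CE4 (0.118) and RT1-A1 (0.133).

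For Cbr1 the nearest were Kif1a (0.0747), Mbp (0.0791) and Sv2a (0.094), and for Crabp1 they were Cryba4 (0.106), Mbp (0.11) and Defb11 (0.113), while Cbr1 and Crabp1 lay 0.0988 from each other. Kif1a measured 2.03, 2.78 and 3.92 FPKM in treated SHR, 1.74, 1.72 and 2.13 in untreated SHR, and 0.28, 0.43 and 0.48 in WKY. Apoh had Rd3l (0.0901), Inmt (0.121) and Runx1t1 (0.165), and no other gene of the 9 came closer to it than 0.364. Prr35 had Acer2 (0.0356), Cldn4 (0.0419) and Myom3 (0.0443). Capn15 had Immp1l (0.031), Nat8f5 (0.0336) and Rab33b (0.0346). Tnfrsf12a had Zswim7 (0.0764), Zcchc9 (0.0801) and Ormdl1 (0.0901), and Snn had Creg1 (0.0639), Tti2 (0.0681) and Tsen15 (0.0705), with 0.0741 between Tnfrsf12a and Snn.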

How the data were processed

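The authors deposited FPKM, per the file headers, in 1 column for each library. Per the labels' protocols, RNA was extracted with Trizol, and a BGISEQ-500 gave single-end reads of 50 bases. The tools named in the submitters' processing notes are Bowtie2 2.2.5 and HISAT2 2.0.4, with build Rnor_6.0. Counting program, annotation and strand setting: not given in the sources used here. FPKM scaling lets abundant transcripts shift all others, and overlapping genes and near-identical copies can exchange reads.

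A gene was kept where 3 or more of the 9 libraries reached 1 FPKM. Values were analysed as log2(FPKM + 1), so fold changes understate those of low genes. The 3 contrasts were tested with limma 3.58.1 (R 4.3.3) in 1 model with a mean for each group (9 libraries, 6 residual degrees of freedom, intensity trend), two-sided, with Benjamini-Hochberg adjustment over all kept genes and calls at an adjusted p of 0.05. Tables and plots used Python 3.11.15, pandas 2.3.3, numpy 2.4.6 and matplotlib 3.10.9. The test was checked on simulated data.

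The 9 genes, the 8 pathway lists and the 15 marker lists were chosen with earlier results of these data known. Named genes are the 9, called genes among the 5 kept neighbours a side (up to 4 a place and contrast), up to 3 called genes a list and contrast, a fixed set, and the 3 nearest genes in pattern; placeholder symbols were left out, and 1 gene of the fixed set is not reported here. The Cbr1-like pair, Cacng5, Dop1b and direct neighbours that were not called were named after their values were seen. GRCr8 was used for names, gene order and promoters only, since its build differs from the authors'. Of the IDs, 17897 matched and 16411 had the same symbol. Within groups libraries correlated at 0.969 to 0.989 over genes, and between groups at 0.922 to 0.987. Alternatives covered the pseudocount, the filter, the scaling, the variance trend, a replicate block, single libraries left out, a fit on 2 groups and the number of neighbours.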

Additional observations from a re-analysis of the deposited data

How the results depend on the processing

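The differences of the 9 genes from WKY kept their sign under every alternative that was run, which follows from the choice of genes and is not a result. Their size at low genes moved with the pseudocount. In treated minus untreated SHR, 5 leave-one-out fits and 2 other settings turned a sign: for Capn15 to -0.046 with median-of-ratios scaling, -0.045 with quantile normalization, -0.0076 without untreated library 1, -0.030 without untreated library 2 and -0.073 without treated library 3, and for Cbr3 to -0.046 without untreated library 2 and -0.054 without treated library 3. With 1 library left out Capn15 ran from -0.073 to 0.061 and Cbr3 from -0.054 to 0.153, and neither passed under any setting.

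Counts over all genes depended on single libraries. Treated against untreated SHR gave 0 to 830 called genes with 1 library left out, 830 only without treated library 1. Untreated SHR against WKY gave 167 to 626 against 388 with all libraries (196 without WKY library 1, 167 without WKY 3, 170, 191 and 212 without untreated libraries 1, 2 and 3, 626 without treated library 1). Treated SHR against WKY gave 593 to 4791 against 3010 (806 without WKY 1, 593 without WKY 3, 4791, 1076 and 945 without treated libraries 1, 2 and 3), and 1026 in a fit on those 2 groups. Of the calls against WKY, 73.5% were higher in treated SHR as deposited, 54.2% with median-of-ratios scaling and 59.9% with quantile normalization, and 62.1%, 51.6% and 49.6% in untreated SHR. The median of all genes shifted from WKY by 0.109 in treated SHR as deposited and by -0.0119 and 0.0105 under those scalings, so small differences such as that of Capn15 should be read beside it. The cause was not tested.

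Deviations of same-numbered libraries had no common direction, with correlations from -0.328 to 0.456, against -0.532 to 0.327 for libraries with different numbers. The highest were 0.456 between WKY and treated library 1 and 0.392 between WKY and treated library 2. With 3 libraries a group, these values cannot settle whether the numbers pair the samples. With a replicate block 1 gene was called between treated and untreated SHR, 282 between untreated SHR and WKY and 2700 between treated SHR and WKY, and none of the 9 genes was called between treated and untreated SHR. Read totals are unknown, so zeros in WKY carry no detection limit.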
